A study of Mus musculus with 6 samples.

Results

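The transcripts of the proteasome were followed in 6 RNA-seq libraries of MC/9, an established mouse mast cell line. The members are all rows of the deposited count table whose symbol starts with Psma to Psmg followed by a number and at most a letter, which gave 49 of 49568 genes. Of these, 47 were counted deeply enough to test. Per the series' design text, mast cells were added to 7F2 osteoblasts, an established mouse osteoblast line, the day after those were seeded. After 24 h with 10 nM rPTH the mast cells were taken off for RNA. The labels mark 3 libraries as untreated control MC/9 cells and 3 as MC/9 cells given rPTH, a name they do not spell out and that is taken here to mean parathyroid hormone. They do not state whether control mast cells also shared a dish with osteoblasts, nor whether replicates came from separate cultures, so a p-value here reflects spread among libraries that may be technical replicates.

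The proteasome is the barrel-shaped protease that degrades proteins tagged with ubiquitin. Its 20S core is built from rings of alpha subunits (Psma) around rings of beta subunits (Psmb), of which Psmb5, Psmb6 and Psmb7 carry the active sites. The 19S cap recognizes tagged proteins, unfolds them with a ring of ATPases (Psmc) and holds non-ATPase subunits (Psmd) that bind and trim ubiquitin. In immune cells, and elsewhere after interferon, the active-site subunits can be replaced by Psmb8, Psmb9 and Psmb10, which form the immunoproteasome and change which peptides are made for antigen presentation. The PA28 activator (Psme1 to Psme3) and PA200 (Psme4) can take the place of the 19S cap, Psmf1 encodes the regulator PI31, and Psmg1 to Psmg4 encode chaperones that assemble the core. When proteasome activity is short, the transcription factor NRF1 (Nfe2l1) is known to raise the core and cap genes together through antioxidant response elements (ARE) in their promoters.

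Proteasome transcripts took 0.593% to 0.919% of each library's counts. Totals were 22282095 to 24993606 counts in the controls and 30623648 to 33577977 with rPTH, so every rPTH library was deeper. The mast cell identity of the samples was checked on 16 markers, of which 15 were counted in all 6 libraries, with a summed level of 8524 to 8930 CPM (counts scaled to library size) in controls and 7143 to 9357 CPM with rPTH. Of 15 tested, 0 passed an adjusted p of 0.05 in edgeR's test and 1, Tpsab1, had an unadjusted p under 0.05, on the lower side (5.89% of all genes). All rPTH libraries lay below all controls for 4 of the 15 (8.45% of all genes), Tpsab1, Tpsb2, Gata2 and Itgb7, and above for 0. Most of these gaps were narrow. The lowest control and the highest rPTH library had 629.3 and 627.5 CPM for Tpsb2 and 1035 and 1033 CPM for Gata2. For Itgb7 they had 222.8 and 222.4 CPM. The median log2 fold change of the 15 was -0.23, against -0.09 for all genes. Transcripts of 24 osteoblast and stromal markers were also present, 22 of them in every library, at 2575 to 2679 CPM in controls and 3499 to 5324 CPM with rPTH, the highest sum being that of rPTH 1. Of 21 tested, 20 had a log2 fold change above 0 and 1 below (58.5% of all genes were below), with a median of 0.56. In edgeR's test 0 passed an adjusted p of 0.05 and 9 had an unadjusted p under 0.05 on the higher side (1.98% of all genes), and 13 had all rPTH libraries above all controls (8.35% of all genes). In bulk RNA, a change in the number of cells of a type and a change in RNA per cell cannot be told apart. Control 1 stood apart: its ribosomal protein transcripts summed to 110100 CPM, against 50270 to 58950 CPM in the other 5 libraries. Levels below are CPM scaled by TMM factors, which were 0.81 in control 1 and 1.03 to 1.06 elsewhere.

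Letters of the ARE core, TGACNNNGC, are shown for 3 members because core and cap genes are known to be raised together through such elements, and these 3 genes are described with their values further on. Psmb5 and Psmb6 are catalytic subunits of the core and Psmc6 is an ATPase of the cap. RefSeq windows (GRCm38.p6) of 250 bases before to 50 bases after the annotated start were matched for 41 of the 49 members. The stretches lie before that start and outside annotated exons, run 5′ to 3′ on the gene's strand, and have the matched letters in capitals. Psmb5 is at chr14:54618023-54618082 on the minus strand, Psmb6 at chr11:70525308-70525356 on the plus strand and Psmc6 at chr14:45329574-45329645 on the plus strand, where the capitals are the reverse complement of the core.
Psmb5: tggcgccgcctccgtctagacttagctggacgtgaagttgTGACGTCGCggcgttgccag
Psmb6: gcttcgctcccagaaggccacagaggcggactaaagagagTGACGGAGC
Psmc6: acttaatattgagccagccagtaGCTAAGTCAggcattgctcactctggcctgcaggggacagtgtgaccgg

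Over both strands, TGACNNNGC was found in the windows of 6 of 41 members (Psmb5, Psmb6, Psmc6, Psmd9, Psmd12 and Psme4), 14.6% against 12.4% of all 32851 windows of that length. The letters CCAAT, the box bound by the factor NF-Y, were in 14 of 41 (34.1%, against 37.4% of all windows). TTCNNNGAA, the letters of the STAT-bound interferon-gamma-activated site, was in 3 of 41 (Psmb8, Psmd2 and Psmg1; 7.32%, against 8.3%). The core of the interferon-stimulated response element, GAAA and GAAA parted by any 2 bases, was in 5 of 41 (Psmb3, Psmd4, Psmd9, Psme1 and Psmg4; 12.2%, against 3.44%). Psma8, Psmb1, Psmb2, Psmb7, Psmc3, Psmd3, Psmd7 and Psmg2 were not matched. These shares are descriptions of letters, and no site was tested for binding.

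Transcripts of the standard proteasome and of the immunoproteasome were present side by side in all 6 libraries. Levels of different genes are compared here as CPM per kilobase of the principal annotated mRNA, given as means of the 3 rPTH libraries, which lay closer together than the controls. The alpha ring ran from 51.1 (Psma3) to 179.7 (Psma7), with a median of 104.1 over 7 genes, and the non-catalytic beta subunits from 108.9 (Psmb1) to 183.5 (Psmb3). The 19S ATPases lay in a narrow band from 73.7 (Psmc6) to 119.5 (Psmc3). The 11 non-ATPase subunits ran from 52.8 (Psmd11, a scaffold subunit of the lid) to 197.5 (Psmd2, the large base subunit that receives ubiquitin shuttle proteins).

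The assembly chaperones and the regulator Psmf1 were less abundant per length than the standard core and cap subunits. The core chaperones ran from 12.2 (Psmg3) to 38.9 (Psmg1) CPM per kilobase, and the cap chaperones Psmd5, Psmd9 and Psmd10 from 13.1 to 22.3. Psmf1 was at 9.04 ± 0.615 with rPTH and 9.22 ± 2.34 in controls (SD, n = 3 each). Of the PA28 subunits, Psme2 had 206.1 ± 16.0 CPM per kilobase with rPTH, above all standard core and cap subunits. Psme1 had 144.9 ± 7.40 and Psme3 76.9 ± 1.95, both within the range of those subunits, while Psme4 had 19.2 ± 2.23. In controls Psme2 had 313.7 ± 195 and Psme1 212.5 ± 112, with control 1 the highest library for both. The tissue-restricted subunits were near the limit of detection. Psmb11, the thymus catalytic subunit, had 2 to 8 counts per library and Psma8, the testis alpha subunit, 0 to 2. At these depths a count of 0 allows up to 3 counts, or 0.0893 to 0.135 CPM (counting error only). A longer or shorter mRNA than the annotated one would shift a per-length value, which bears most on Psma2 and Psma3, annotated at 2911 and 2846 bases.

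**Figure D1:**
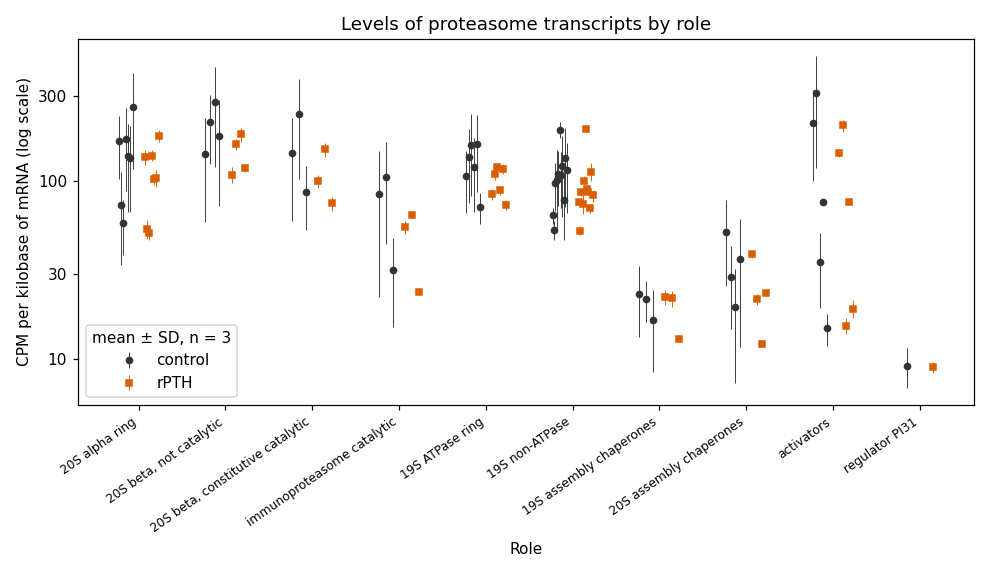
Level of each tested proteasome gene as CPM per kilobase of its principal mRNA (log axis), grouped by role; each point is 1 gene in 1 group (circles control, squares rPTH) and bars are SD over 3 libraries. Standard core and cap subunits with rPTH lie between 51.1 and 197.5, above the chaperones (12.2 to 38.9) and Psmf1 (9.04), and the control bars are longer throughout most roles.

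None of the 47 tested members passed the test of rPTH against control: with edgeR's quasi-likelihood test, 0 passed an adjusted p of 0.05 in either direction, as did 0% of all 16696 genes, and the smallest adjusted p among members was 0.619. The nominal direction was lopsided: 41 of 47 members (87.2%) had a log2 fold change below 0, against 58.5% of all genes tested, with a median of -0.41 against -0.09. An unadjusted p under 0.05 was reached by 1 member on the lower side (5.89% of all genes) and 0 on the higher side (1.98% of all genes). DESeq2 and limma-voom also called 0 members (5 and 0 of all genes), each with 1 at an unadjusted p under 0.05 on the lower side (7.25% and 2.76% of all genes) and 0 on the higher side (3.76% and 1.96%). The 3 rPTH libraries lay wholly below the controls for 0 members (8.45% of all genes) and wholly above for 2, Psmd1 and Psme4 (8.35% of all genes). The authors' deposited table gave 0 of 47 members an adjusted p under 0.05, a rate of 0.0707% over all its genes with one, with members' adjusted p from 0.154 to 0.97.

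Library by library, the pattern was uneven. Control 1 was the highest of the 6 libraries for 43 of 47 members (91.5%), against 39.3% of all genes tested. The median member stood 0.86 above its own 6-library mean in control 1 on the log2 scale, and between -0.27 and -0.05 in the other 5 libraries. Summed over all 49 members, the controls had 11340, 6183 and 5710 CPM (replicates 1 to 3), and the rPTH libraries 6259, 6629 and 5914 CPM. The rPTH sums lie between or just above those of control 2 and 3, and control 1 was 1.85 times the mean of the other 5.

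**Figure D2:**
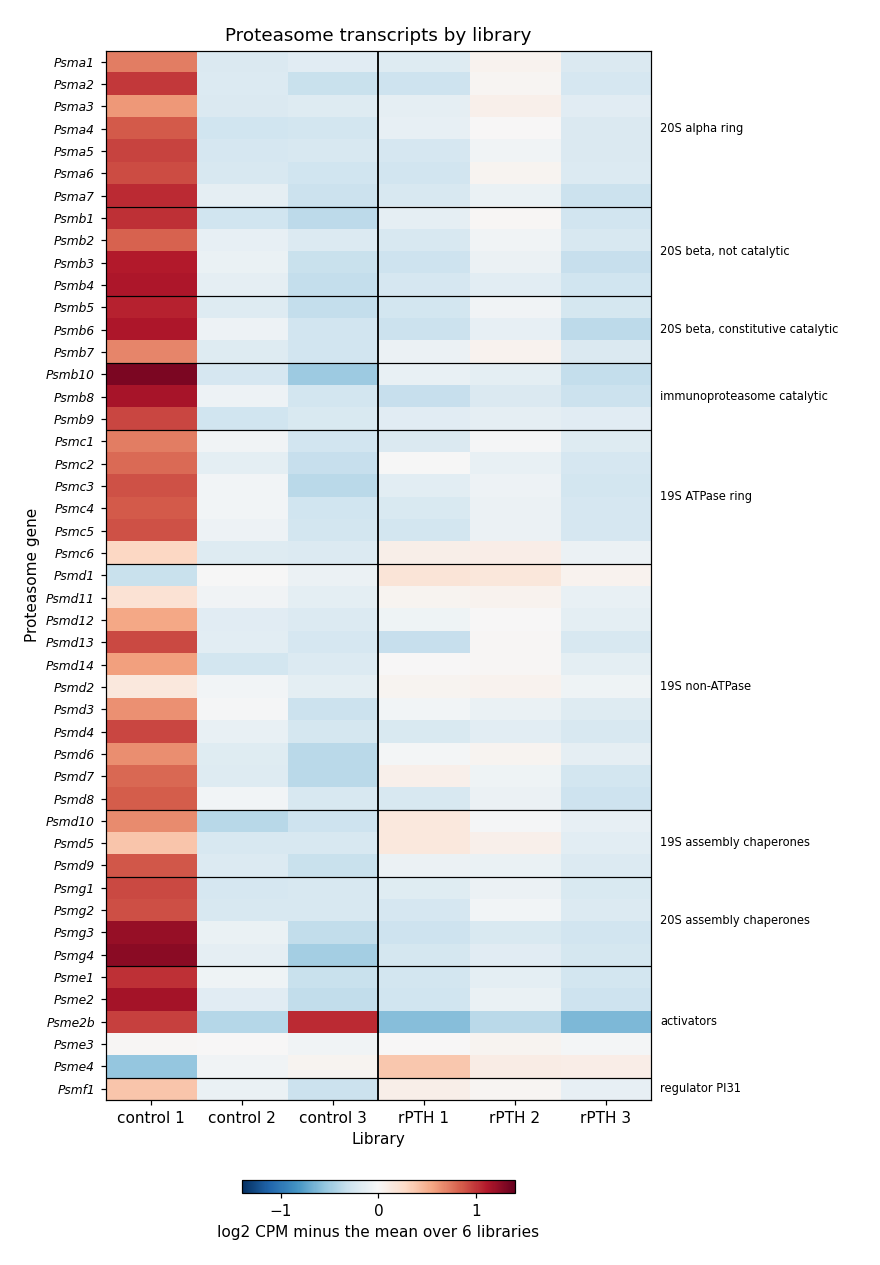
Heat map of the 47 tested proteasome genes (rows, by role) in 6 libraries (columns); colour is log2 CPM minus the gene's mean over the libraries. The column of control 1 is red for nearly every gene, with Psmd1, Psme3 and Psme4 as the exceptions in the 19S and activator rows, and Psme2b is also red in control 3.

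The nominal shift was not seen without control 1. In that fit 34 of 47 members had a log2 fold change above 0 and 13 below (27.7% below, against 56.6% of all genes), and the median was 0.06. Groups then did not overlap for 15 members, all with rPTH above (15.9% of all genes), and for 0 members with rPTH below (15.5%). An unadjusted p under 0.05 was reached by 4 members on the higher side (Psmc6, Psmd5, Psmd6 and Psmd10, chosen after their values were seen; 4.46% of all genes) and by Psme2b on the lower side (7.95% of all genes), and the smallest adjusted p was 0.4. These 4 had log2 fold changes of 0.21 to 0.33 and belong to the 19S cap or its chaperones. Psmd10, which encodes the chaperone gankyrin, had 24.3 and 26.1 CPM in control 2 and 3 and 35.3, 31.3 and 29.2 CPM in rPTH 1, 2 and 3, but 50.2 CPM in control 1. Control 3, the lowest library for 28 of 47 members (59.6%, against 16.8% of all genes), also moved these counts. Without it 40 members were below 0 (49.1% of all genes), 12 had all rPTH libraries below the controls (16.7%) and 2 above (17.6%), and an unadjusted p under 0.05 was reached by 4 members on the lower side (5.7%) and 0 on the higher side (3.79%). The summed osteoblast and stromal marker transcripts were also higher in all 3 rPTH libraries and highest in rPTH 1. With all controls kept, 4 of 15 mast cell markers were lower in all 3 rPTH libraries, most of them by a narrow margin. The part of both marker groups in these values was not tested.

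The excess in control 1 was larger for shorter mRNAs. Across the 47 members the log2 ratio of control 1 to the mean of the other 5 libraries had a Spearman correlation with mRNA length of -0.68, and across 12292 protein-coding genes tested it was -0.69. Genes are not independent replicates and share the same libraries, so these are descriptions. The 9 members with mRNAs under 1 kb had a median ratio of 1.32 on the log2 scale, the 26 members from 1 to 2 kb 1.07, the 8 from 2 to 3 kb 0.53 and the 4 from 3 kb upwards 0.04. Protein-coding genes in the same length ranges had medians of 1.21, 0.73, 0.26 and -0.4. The log2 fold changes had the same order: all 9 members under 1 kb were below 0 (median -0.61, against -0.55 for protein-coding genes of that length) and 1 of the 4 from 3 kb upwards was (median 0.14, against 0.14). With a length and GC trend subtracted per library, an alternative added after seeing the data, the members' median was -0.13, against -0.06 for all genes, and 40 of 47 were below 0 (59.9% of all genes). In that fit 1 member had all rPTH libraries above the controls (6.26% of all genes) and 1 had all below (7.63%), and an unadjusted p under 0.05 was reached by 0 members on the higher side (2.4%) and 1 on the lower side, Psme2b (2.27%).

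**Figure D3:**
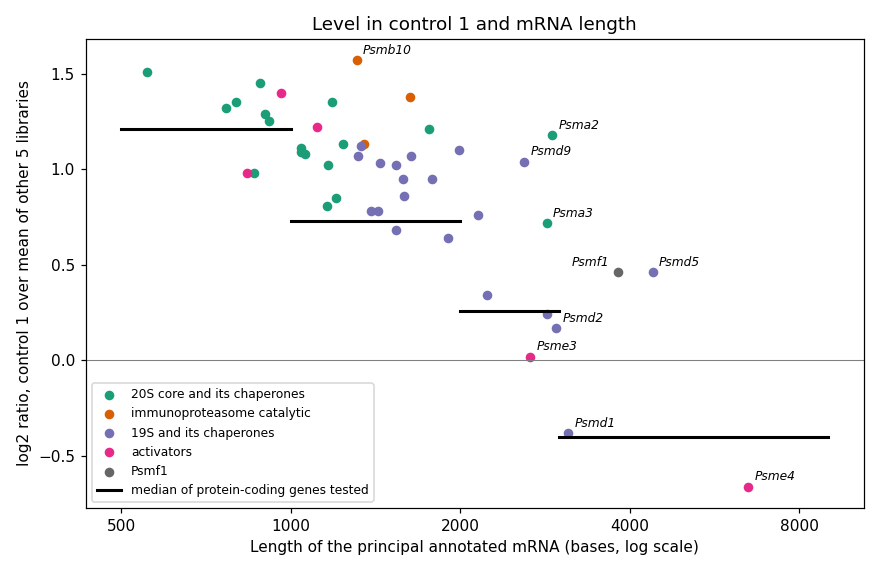
Log2 ratio of control 1 to the mean of the other 5 libraries against mRNA length (log axis), 1 point per tested proteasome gene coloured by role; black bars are the medians of protein-coding genes in 4 length ranges. Points run from 1.57 for Psmb10 to -0.66 for Psme4, the longest mRNA. Psma2, Psma3, Psmd5, Psmd9 and Psmf1 are among those above the bar of their length range.

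A few members did not keep to the length order. Psma2, an alpha ring subunit annotated at 2911 bases, had a log2 ratio of 1.18 in control 1, and Psmd9, a cap chaperone, had 1.04, against a median of 0.26 for protein-coding genes of 2 to 3 kb. Psmb10, annotated at 1311 bases, had 1.57, against a median of 0.73 for protein-coding genes of 1 to 2 kb. Psmd5 and Psmf1, annotated at 4397 and 3809 bases, had 0.46 each, against a median of -0.4 for protein-coding genes from 3 kb upwards. The other members of that length, Psmd1 and Psme4, had -0.38 and -0.66. On the antisense strand the long noncoding RNA Gm26745 shares 1849 exonic bases with Psmd9, and no source used here gives the strand setting of the counting. These genes were picked after their values were seen.

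The constitutive catalytic subunits are described first. Psmb5, the chymotrypsin-like subunit of the standard core (chromosome 14, 54614119 to 54618022 in GENCODE M21 on GRCm38), had 215.5, 90.2 and 80.9 CPM in controls (replicates 1 to 3 in this order here and below) and 85.4, 98.9 and 86.0 CPM with rPTH. Its log2 fold change was -0.52 ± 0.38 (SE), and 0.06 without control 1. Psmb6, the caspase-like subunit (chromosome 11, 70525367 to 70527858), had 315.2, 136.5 and 119.3 CPM in controls and 116.6, 132.8 and 111.8 CPM with rPTH. Control 1 is the high library for both, and the groups overlap. Psmb7, the trypsin-like subunit (chromosome 2, 38588036 to 38644087), had 147.1, 80.9 and 76.0 CPM in controls and 86.8, 94.9 and 79.4 CPM with rPTH. The log2 fold changes of Psmb6 and Psmb7 were -0.66 ± 0.38 and -0.22 ± 0.28, and -0.1 and 0.14 without control 1. Psmb7 shares 405 exonic bases with Nek6 on the other strand.

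The immunoproteasome subunits were all expressed, and the labels name no interferon. Psmb8, which replaces Psmb5, lies in the major histocompatibility region (chromosome 17, 34197721 to 34201454) and had 284.7, 121.3 and 106.7 CPM in controls and 102.2, 111.2 and 103.9 CPM with rPTH. Psmb9, which replaces Psmb6 and lies close to Psmb8 (chromosome 17, 34181987 to 34187764), had 68.4, 29.4 and 30.6 CPM in controls and 32.0, 32.6 and 31.8 CPM with rPTH. Psmb10, which replaces Psmb7 (chromosome 8, 105935735 to 105938444), had 205.2, 70.2 and 58.1 CPM in controls and 76.8, 75.0 and 65.3 CPM with rPTH. The 3 rPTH libraries sit close to control 2 and 3 for each, and control 1 stands 1.13 to 1.57 above the mean of the other 5 on the log2 scale. The log2 fold changes were -0.69 ± 0.38 for Psmb8, -0.41 ± 0.34 for Psmb9 and -0.62 ± 0.47 for Psmb10 (SE; edgeR adjusted p = 0.628 to 0.658). Psmb9 shares 212 exonic bases with Tap1, a peptide transporter gene on the other strand.

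The balance of the catalytic subunits was compared within each library, where library scaling cancels. Per length, Psmb8, Psmb9 and Psmb10 together made up 33.4%, 30.5% and 30.3% of the transcripts of all 6 catalytic subunits in the controls (replicates 1 to 3), and 31.4%, 29.5% and 31.1% with rPTH. The means were 31.4% ± 1.74 and 30.7% ± 1.05 (SD, n = 3 each), a difference of -0.74 percentage points that is smaller than the spread, and 0.262 without control 1. The groups overlap, and no test was made of this share over members.

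The pairs behind that share differed from each other. Psmb8 made up 42.2%, 42.6% and 42.1% of Psmb8 plus Psmb5 in the controls and 39.8%, 38.3% and 40% with rPTH, so that all 3 rPTH libraries lay below all 3 controls. The difference of the means was -2.94 percentage points, against SDs of 0.265 and 0.923, and ran from -3.26 to -2.41 with single libraries left out. In raw counts Psmb8 was 56.9%, 57.4% and 56.9% of the pair in controls, with 95% Wilson intervals of 55.9% to 57.9%, 56.0% to 58.7% and 55.4% to 58.3%. With rPTH it was 54.5%, 52.9% and 54.7%, with intervals of 53.2% to 55.8%, 51.8% to 54.1% and 53.5% to 55.9%. The interval of control 3 overlaps those of rPTH 1 and rPTH 3, and the intervals cover counting error only. Psmb9 made up 11.4%, 11.3% and 13.2% of Psmb9 plus Psmb6 in controls and 13.9%, 12.7% and 14.4% with rPTH. These overlap through control 3. Psmb10 made up 55.3%, 43.4% and 40.3% of Psmb10 plus Psmb7 in controls and 43.9%, 41.1% and 42.1% with rPTH, with control 1 alone above the rest. The pairs were computed in addition to the planned share of all 6, with no test. Only the Psmb8 pair had groups that did not overlap, and how often other gene pairs separate in this way was not counted. Taken singly, Psmb8 and Psmb5 each had groups that overlapped. The antisense gene Gm20496, which shares 498 exonic bases with Psmb8, had 0 to 19 counts per library.

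**Figure D4:**
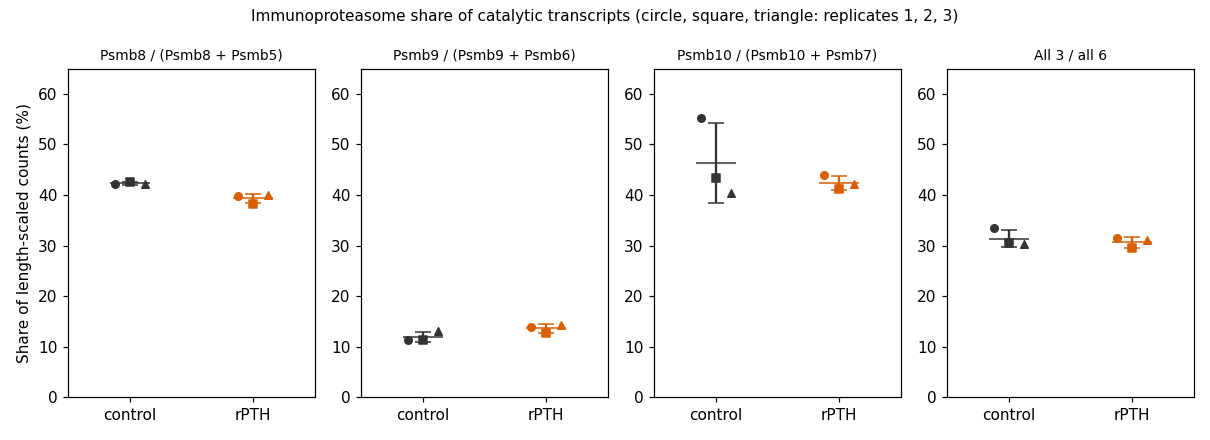
Share of each immunoproteasome subunit in the length-scaled counts of its pair, and of all 3 in all 6 catalytic subunits (percent, axis from 0); symbols are single libraries, horizontal marks and bars are mean and SD over 3 libraries. The Psmb8 share is 42.1% to 42.6% in controls and 38.3% to 40% with rPTH, while the other panels overlap between groups.

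The activators included the members with the lowest and the highest log2 fold change, Psme2b and Psme4, and a member with hardly any difference, Psme3. Psme1 and Psme2, the interferon-inducible PA28 subunits, lie close together on chromosome 14. Psme1 had 379.0, 179.4 and 150.5 CPM in controls and 156.0, 170.6 and 156.7 CPM with rPTH. Psme2 had 517.9, 206.1 and 181.3 CPM in controls and 190.2, 216.0 and 188.6 CPM with rPTH. Both groups overlap, and the log2 fold changes of -0.55 ± 0.35 and -0.61 ± 0.41 became -0.04 and 0.02 without control 1. Psme3, the nuclear PA28 gamma, was the steadiest of these genes, with 206.0, 204.7 and 197.7 CPM in controls, 205.3, 210.0 and 199.6 CPM with rPTH, and a log2 fold change of 0.02 ± 0.15.

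Psme4, which encodes the large activator PA200 (chromosome 11, 30771726 to 30880361), had the highest log2 fold change of the members. It had 74.7, 105.3 and 111.8 CPM in controls and 141.5, 117.0 and 116.0 CPM with rPTH, so that every rPTH library was above every control (8.35% of all genes). The log2 fold change was 0.36 ± 0.20 (SE; edgeR adjusted p = 0.628). It was 0.19 without control 1 and 0.03 after removal of the length and GC trend, and its mRNA was the longest of the tested members. The authors' deposited table gives it a log2 fold change of 0.39 with an adjusted p of 0.582.

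Psme2b, annotated as a protein-coding gene with a single exon that resembles Psme2 (chromosome 11, 48945354 to 48946190), was the member with the smallest p. It had 36.1, 14.2 and 38.4 CPM in controls and 12.3, 14.4 and 12.1 CPM with rPTH. Control 1 and control 3 are high, and control 2 is within the rPTH range. The log2 fold change was -1.19 ± 0.37 (SE), with an adjusted p of 0.619 in edgeR's quasi-likelihood test, and -1.04 without control 1. It was -1.53 without control 2 and -0.83 without control 3. Pseudogenes as a class, in plain CPM, were also highest in control 1 and control 3, with 137400 in control 1, 122800 in control 3 and 93610 to 95520 in the other 4. Of the 4 rows named as proteasome pseudogenes, which the rule leaves out, Psmb5-ps (82 counts), Psmb6-ps (23) and Psmb6-ps2 (111) were highest in control 3 as well, relative to depth. Psmb7-ps2 was not, with 2 counts in each control and 5, 0 and 5 with rPTH. Reads of near-identical copies may be split between them and the parent gene, which would make the counts of Psme2b and Psme2 uncertain. Whether this applies to these 2 genes was not tested.

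Among the 19S genes, groups did not overlap for Psmd1 only, 1 of the 11 non-ATPase subunits (rPTH above, as for 8.35% of all genes). Psmd1, a large base subunit of the cap, had 175.6, 217.6 and 206.4 CPM in controls and 246.7, 244.0 and 226.3 CPM with rPTH, with no overlap and control 1 the lowest library. Its log2 fold change was 0.26 ± 0.16 (SE; edgeR adjusted p = 0.629), 0.16 without control 1 and 0.17 after removal of the length and GC trend. Psmd1 shares exonic bases with Htr2b (252, other strand) and Gm21972 (301, same strand). Psmd2, its partner in the base and the member with most counts, had 641.8, 563.6 and 527.2 CPM in controls and 596.7, 599.9 and 558.0 CPM with rPTH, a log2 fold change of 0.02 ± 0.18. Psmc6, an ATPase, had 196.2, 141.6 and 141.2 CPM in controls and 170.6, 171.1 and 152.2 CPM with rPTH, a log2 fold change of 0.04 ± 0.19. For Psmd2 and Psmc6 the rPTH libraries lie between control 1 and the other controls or within them.

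The other cap genes were mostly highest in control 1. Of the 6 ATPases 5 had log2 fold changes below 0, from -0.46 (Psmc5) to -0.31 (Psmc2), and all 6 were highest in control 1 and lowest in control 3. Of the 11 non-ATPase subunits 9 were below 0, with a median of -0.17 and a lowest value of -0.49 for Psmd4, a ubiquitin receptor. The deubiquitinase of the lid, Psmd14, had -0.13 ± 0.25. The cap chaperones had a median of -0.07.

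The core and its chaperones were nominally lower throughout. All 7 alpha subunits (median log2 fold change -0.38, range -0.54 to -0.19) and all 4 non-catalytic beta subunits (median -0.51) were below 0, and all 11 were highest in control 1. Psmb3, the beta subunit among them with the smallest p, had 355.3, 155.0 and 132.5 CPM in controls and 134.5, 155.2 and 132.0 CPM with rPTH, a log2 fold change of -0.61 ± 0.38. The 4 chaperones Psmg1 to Psmg4 ran from -0.69 to -0.41. Psmg3, an assembly chaperone of the alpha ring, had 29.96, 12.1 and 10.2 CPM in controls and 10.6, 11.1 and 10.7 CPM with rPTH, a log2 fold change of -0.69 ± 0.41. Without control 1 the values of Psmb3 and Psmg3 were -0.04 and -0.06. Psmf1 had 45.1, 32.3 and 27.95 CPM in controls and 36.3, 35.2 and 31.8 CPM with rPTH, a log2 fold change of -0.03 ± 0.21 whose sign depended on the scaling (0.04 with RLE size factors).

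**Figure D5:**
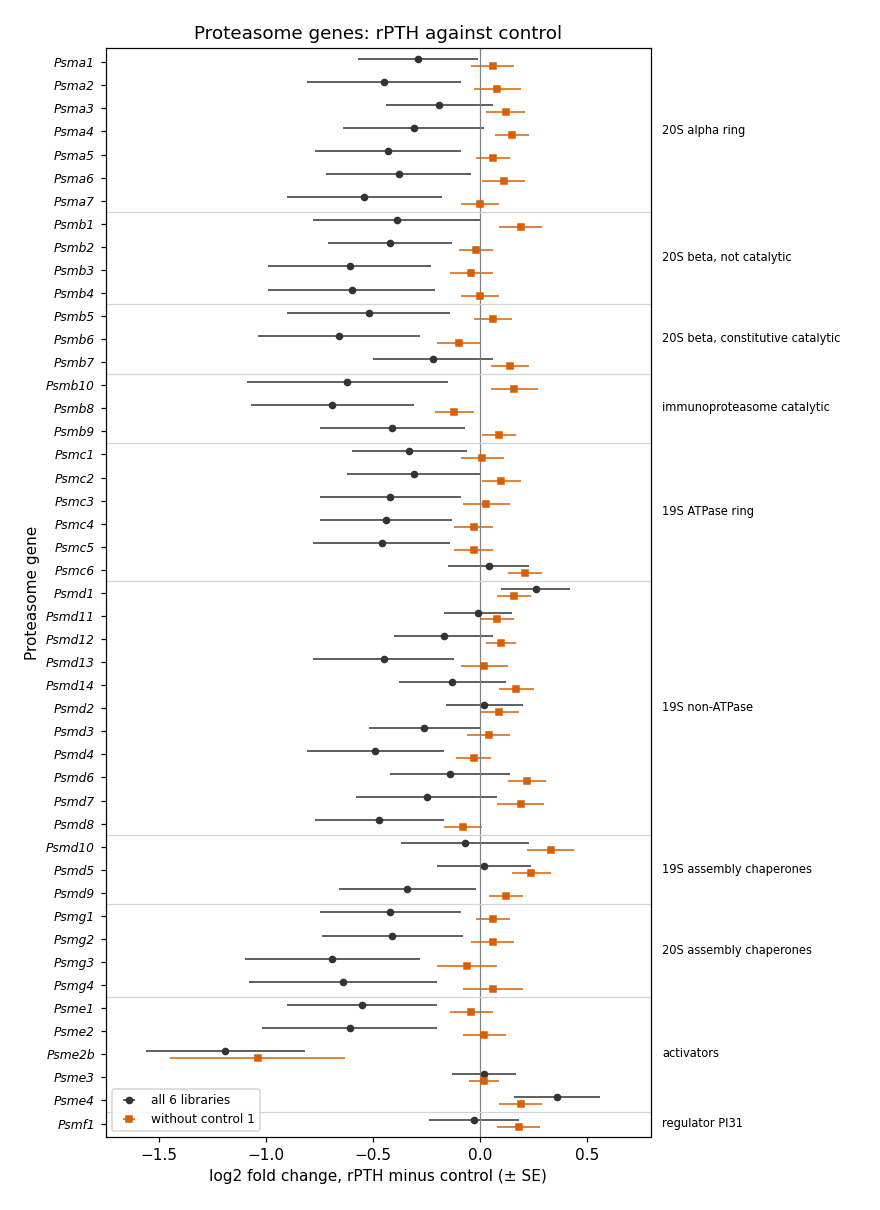
Log2 fold change (rPTH minus control, bars ± SE) of each tested proteasome gene by role, from all 6 libraries (circles) and without control 1 (squares). With all libraries 41 of 47 points lie below 0, and without control 1 34 of 47 lie above 0, Psme2b staying near -1.04.

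Summed over roles, the excess of control 1 was not even. It was 2.67 times the mean of the other 5 libraries for the 3 immunoproteasome subunits, 2.34 times for the non-catalytic beta subunits, 2.3 times for the constitutive catalytic subunits and 2.07 times for the alpha ring. It was 1.88 times for the ATPases, 1.74 times for the activators and 1.49 times for the non-ATPase subunits. The cause of this order was not tested. For the next values control 1 was left out of the control mean, but the TMM factors of all 6 libraries were kept, without a refit. The log2 ratio of summed CPM, rPTH to control, was then 0.01 for the immunoproteasome subunits and 0.03 for the constitutive catalytic subunits. The alpha ring had 0.09, the ATPases 0.06, the non-ATPase subunits 0.1 and the cap chaperones 0.24. All members together had 0.08, against 0.06 in the refit without control 1.

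Other genes of the pathway gave no calls either. Of 12 tested genes for proteasome-associated proteins, 0 passed in either direction, 6 were below 0 and the median log2 fold change was -0.03. The ubiquitin ligase Ube3c had 100.7 ± 17.8 and 130.9 ± 14.5 CPM (SD, n = 3 each; 0.38), the deubiquitinase Usp14 had 103.6 ± 11.4 and 125.0 ± 5.26 CPM (0.27), and Shfm1, the small cap subunit, had 152.6 ± 99.7 and 92.5 ± 6.78 CPM (-0.72). Of the 12, Ube3c and Usp14 had every rPTH library above every control (8.35% of all genes) and 0 had every one below (8.45%). Of 12 genes for transcription and NRF1 processing 0 passed, 0 had groups that did not overlap and the median was 0.1, with Stat3 at 155.2 ± 22.6 and 175.0 ± 6.55 CPM, Nfya at 89.8 ± 15.9 and 99.3 ± 2.61 CPM, and Nfyc at 58.9 ± 13.6 and 52.5 ± 2.29 CPM. For Nfe2l1 itself the levels were 159.5 ± 21.02 CPM (control) and 173.7 ± 11.9 CPM (rPTH), a log2 fold change of 0.12 ± 0.17.

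Ubiquitin supply and delivery had 14 tested genes, with 0 calls and a median of -0.02. The shuttle factor Rad23b had 252.6 ± 39.6 and 309.7 ± 18.1 CPM, and Ubqln2, another shuttle, 60.8 ± 12.7 and 73.9 ± 6.68 CPM. All rPTH libraries lay above the controls for 2 of the 14 (Rad23b and Uba1; 8.35% of all genes). Rps27a, which encodes ubiquitin fused to a ribosomal protein, had 1001 ± 666 and 638.3 ± 46.8 CPM, the SD in controls coming with control 1 as the highest library. Antigen processing partners had 13 tested genes, 0 calls, 10 below 0 and a median of -0.18. The peptide-trimming enzyme Erap1 had 61.7 ± 14.8 and 78.3 ± 4.41 CPM, and the class I regulator Nlrc5 had 76.6 ± 25.6 and 101.8 ± 18.1 CPM. The class I heavy chain H2-K1 had 973.4 ± 415 and 694.6 ± 43.4 CPM. All rPTH libraries lay above the controls for 2 of the 13 (Erap1 and Canx; 8.35% of all genes) and below for 0 (8.45%). The adjusted p of all genes on these 4 lists was at least 0.628 in edgeR.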

How the data were processed

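The authors deposited a table of whole-number read counts per gene symbol, not normalized, for 6 MC/9 libraries, 3 control and 3 rPTH. Per the submitters' processing notes, which give no roles, tools were Trimmomatic 0.36, STAR 2.5.2b, Subread 1.5.0p3, featureCounts, DESeq2 1.12.4 and R 3.3.0, with GRCm38.p5 and mm9 as builds; the annotation and strand setting are not given in the sources used here. From the authors' deposited comparison table their log2 fold change, p-values and adjusted p were quoted; its mean signal and its score (Wald statistic), per the file headers, were not used in the text.

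All genes were fitted with edgeR 4.0.16 (quasi-likelihood, robust, TMM, filterByExpr minimum count 10) in R 4.3.3, with Benjamini-Hochberg adjustment over 16696 genes, threshold 0.05, and no covariates. DESeq2 1.42.0 and limma 3.58.1 (voom) were alternatives. The fits were tested on simulated data with the same spread setting for every gene and no shift of a single library. That test therefore does not cover the departure of control 1. Positions and lengths come from GENCODE M21, which matched 47240 of 49568 symbols; the length is that of the longest principal transcript. Members and lists were chosen with earlier results of these data known. Values are printed per library for catalytic subunits, activators, Psmf1 and the 5 members of smallest p in each direction with at least 1 CPM, and from each other list for the 3 genes of smallest p. Nfe2l1 was named in addition. A result within the pathway lists is not reported here.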

Additional observations from a re-analysis of the deposited data

How the results depend on the processing

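In every setting run, 0 members passed an adjusted p of 0.05, and the smallest adjusted p of a member, 0.0595, came without control 2. With single libraries left out, the members' median log2 fold change ran from -0.58 to 0.06. The log2 ratio of summed CPM ran from -0.45 to 0.06. Members below 0 ran from 13 to 44 (49.1% to 60.9% of all genes). In edgeR, members at an unadjusted p under 0.05 ran from 0 (without rPTH 1) to 5 (without control 1). Without rPTH 1, 0.261% of all genes reached it on the higher side and 1.35% on the lower. Without control 1 these shares were 4.46% and 7.95%. Members whose groups did not overlap ran from 2 to 15. The 15 had rPTH above (15.9% of all genes). Without rPTH 2, 5 members had rPTH below (15.3%) and 2 above (12.6%). The 13, the 15 and both values of 0.06 came without control 1. In the same settings the log2 fold change changed sign for Psmb5 (-0.73 to 0.06), Psmb7 (-0.37 to 0.14), Psmb10 (-0.87 to 0.16), Psmb9 (-0.63 to 0.09), Psme2 (-0.83 to 0.02), Psmf1 (-0.09 to 0.18) and Psmc6 (-0.04 to 0.21), and reached 0 for Psme3 (0 to 0.09) and Psmd2 (0 to 0.09). Psmf1 was at 0.04 with RLE size factors and with DESeq2, 0.12 without a filter on low counts and 0 with limma-voom. Without that filter, 4 members had groups that did not overlap, 3 above (7.75% of all genes) and 1 below (4.43%). With the length and GC trend removed Psmb5 was at 0.00, Psmb7 at 0.05 and Psmc6 at -0.2. With control 2 as the only control, which assumes that it varies like the rPTH libraries, 21 members were below 0, 29 did not overlap (17 above, against 30.3% of all genes, and 12 below, against 30.8%) and the median was 0.04, with Psmb7 at 0.11, Psmb10 at 0.04, Psmb9 at 0.13 and Psmf1 at 0.09. The cause was not tested. The labels do not say whether replicate numbers pair the libraries. After each group was centred, same-numbered libraries had correlations of -0.13, -0.34 and 0.13, which with 3 libraries a group cannot settle this. With a replicate block 0 members passed and 1 had an unadjusted p under 0.05, on the lower side (2.46% of all genes). In that fit 40 members were below 0 (56.5% of all genes) and the median was -0.29. Over all genes 525 instead of 1314 then had an unadjusted p under 0.05. With 3 libraries a group, low-count members such as Psma8 and Psmb11 could not be tested.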
